A study of Mus musculus with 6 samples.

Results

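Cd52, Thy1, Ly6c1, Ly6e and Ly6a encode 5 mouse T cell surface proteins that are held on the outer leaflet of the plasma membrane by a glycosylphosphatidylinositol (GPI) anchor, and their poly(A) tails were described here in naive CD4 T cells with and without BTG1 and BTG2. The 5 transcripts are among 7282 gene IDs linked to tags in the files, of which 6469 had a tag with a tail. Cd52 (ENSMUSG00000000682) was chosen by its tail length in DKO against WT cells, in which it had ranked first among the IDs tested in earlier results of these data. Thy1 (ENSMUSG00000032011), Ly6c1 (ENSMUSG00000079018), Ly6e (ENSMUSG00000022587) and Ly6a (ENSMUSG00000075602) were chosen beside it as further GPI-anchored T cell proteins, and how measured values entered that choice is not given. The DKO and WT values of the 5 genes are therefore given as a description, and fits over all IDs are given by their counts of calls over all IDs and by the genes' log2 folds, with no call of a member.

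mTAIL-seq ligates an adaptor to RNA 3′ ends and reads the end of each transcript with its tail. It was run on naive CD4 T cells sorted as TCRβ+ CD4+ CD25- with high CD62L and low CD44. The 3 DKO libraries came from mice with floxed Btg1 and floxed Btg2 alleles and CD4-Cre (Btg1f/f Btg2f/f-CD4-Cre), and the 3 WT libraries from littermate controls with the same floxed alleles (Btg1f/f Btg2f/f). Cre driven by the CD4 promoter acts from the CD4-expressing thymocyte stage on, so the deletion is directed at the T cell lineage. No label used here gives the age of the mice. The series text counts 3 replicates of each genotype while the growth protocol mentions 2 pairs of mice, so libraries may share animals and p-values measure the spread between libraries. The files list gene IDs without names, so markers of the sorted cells and the transcripts of Btg1 and Btg2 were not analysed here.

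The DKO libraries held 20674, 24024 and 3943 tailed tags linked to a gene ID, and the WT libraries 16953, 11386 and 7177. Tags, each made of 1 or more reads, counted as tailed from 5 nt on. The libraries numbered 3 stood apart in both genotypes: 35.3% of mapped tags in DKO 3 and 32.3% in WT 3 had a tail under 5 nt, against 7.95% to 9.94% in the other 4 libraries. Mean tail length over all linked tags was 72.3, 78.9 and 60.9 nt in the DKO libraries and 74.7, 70.3 and 48.3 nt in the WT libraries. The values of Cd52, Ly6e and Thy1 are given with and without the libraries numbered 3 for this reason, while Ly6c1 and Ly6a, with few tags, are given tag by tag or by their range.

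The GPI anchor is a glycolipid that the endoplasmic reticulum attaches to the C terminus of a protein, and it places the protein on the cell surface without a transmembrane segment. Cd52 encodes a very short glycopeptide on lymphocytes, whose human counterpart is the target of the antibody alemtuzumab. Thy1 encodes the classical pan-T cell surface marker of the mouse. Ly6e, Ly6a (Sca-1) and Ly6c1 belong to the Ly6 family of small cysteine-rich proteins and are inducible by interferon. The poly(A) tail of an mRNA is bound by poly(A)-binding protein and shortened by deadenylases, among them the CCR4-NOT complex, which BTG1 and BTG2 are known to bind. In the RefSeq gene table of GRCm38.p6, Cd52 lies at chr4:134093538-134095073 and Thy1 at chr9:44043384-44048579. Ly6e (chr15:74955025-74959904), Ly6a (chr15:74994877-74998031) and Ly6c1 (chr15:75044018-75048920) lie within 93.9 kb of each other. Ly6c1 has a near-identical neighbour, Ly6c2, and its count is uncertain for that reason, although 0 tags of the 5 genes were linked to more than 1 ID.

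The tails themselves are shown for Cd52, the transcript with the contrast that led to the choice. For each library, the tag nearest to that library's median was taken among tags whose deposited bases cover the whole tail, and each letter is 1 base read.
DKO 1, Cd52, 62 nt: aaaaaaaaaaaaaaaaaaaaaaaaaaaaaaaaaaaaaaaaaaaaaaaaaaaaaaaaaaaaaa
DKO 2, Cd52, 76 nt: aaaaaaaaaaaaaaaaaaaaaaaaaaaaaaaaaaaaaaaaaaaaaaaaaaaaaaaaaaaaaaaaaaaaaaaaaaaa
DKO 3, Cd52, 69 nt: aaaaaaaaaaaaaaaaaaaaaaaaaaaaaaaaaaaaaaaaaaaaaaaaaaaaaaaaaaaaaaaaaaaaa
WT 1, Cd52, 69 nt: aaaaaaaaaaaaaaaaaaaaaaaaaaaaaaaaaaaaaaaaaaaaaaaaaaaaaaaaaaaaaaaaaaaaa
WT 2, Cd52, 62 nt: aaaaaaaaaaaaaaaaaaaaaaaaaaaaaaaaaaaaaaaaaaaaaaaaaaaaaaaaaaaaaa
WT 3, Cd52, 38 nt: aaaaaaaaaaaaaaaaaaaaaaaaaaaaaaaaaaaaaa
By that choice all 6 are runs of A with no other base. The WT 3 tail was the shortest of the 6, while the tail from WT 1 was as long as that from DKO 3.

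The 5 genes had 385 tailed tags in DKO and 196 in WT, 581 in all, of which Cd52 had 235 and Ly6e 259. Cd52 had 78, 78 and 12 tags in DKO and 21, 20 and 26 in WT. Ly6e had 89, 59 and 6 tags in DKO and 58, 37 and 10 in WT. The other three genes were thin: Thy1 had 43 tags, Ly6c1 22 and Ly6a 22 over the 6 libraries. Cd52 and Ly6e therefore carry most of the description, and a library mean of the other genes can rest on a single tag.

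Cd52 tails averaged 69.8, 82.3 and 71.9 nt in DKO libraries 1, 2 and 3, against 61.0, 60.9 and 46.0 nt in WT libraries 1, 2 and 3. The lowest DKO library lay above the highest WT library, which was so for 9.21% of the 76 IDs that had 5 or more tailed tags in each library. The group means were 74.7 nt ± 6.66 in DKO and 56.0 nt ± 8.60 in WT (SD, n = 3 each), a difference of 18.7 nt. Between libraries of the same number, DKO exceeded WT by 8.85 nt, 21.4 nt and 25.9 nt for numbers 1, 2 and 3. With numbers 1 and 2 only, the means were 76.1 nt in DKO and 60.9 nt in WT, a difference of 15.1 nt.

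The Cd52 medians did not separate the genotypes. They were 62.5, 76 and 69 nt in DKO and 69, 58 and 38.5 nt in WT. In the libraries numbered 1 the DKO median lay 6.5 nt below the WT median, and in numbers 2 and 3 it lay 18 and 30.5 nt above.

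At the short end of the Cd52 distribution the genotypes stood apart. Tails of 5 to 29 nt made up 2.56% of Cd52 tags in DKO 1 (2 of 78), 2.56% in DKO 2 (2 of 78) and 0% in DKO 3 (0 of 12, with an exact 95% interval up to 26.5%). In WT they made up 19.0% in WT 1 (4 of 21), 20% in WT 2 (4 of 20) and 19.2% in WT 3 (5 of 26). All 3 WT libraries held a like share, with exact 95% intervals (Clopper-Pearson) of 5.45% to 41.9%, 5.73% to 43.7% and 6.56% to 39.4%, and the DKO libraries did not reach it, a separation found for 25% of the same 76 IDs. These intervals cover counting error only and leave out the spread between libraries. They also treat tags as independent molecules, which PCR products need not be. The group means were 1.71% ± 1.48 in DKO and 19.4% ± 0.505 in WT (SD, n = 3 each). Summed over libraries, 4 of 168 DKO tags and 13 of 67 WT tags were that short. Over all linked tags, tails under 30 nt made up 8.71%, 7.80% and 15.4% in DKO and 9.77%, 10.9% and 25.3% in WT. The Cd52 share lay above that of its library in WT 1 and WT 2, and below it in WT 3 and in every DKO library.

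The lower quartile of Cd52 tails also lay higher in every DKO library, at 49, 49.5 and 58 nt in DKO and 37, 34 and 32.3 nt in WT, as it did for 21.1% of the 76 IDs. The share between 30 and 59 nt did not separate the genotypes, at 41.0%, 32.1% and 33.3% in DKO and 28.6%, 30% and 50% in WT. The share from 90 nt to under 150 nt also overlapped, at 16.7%, 35.9% and 8.33% in DKO and 9.52%, 25% and 0% in WT. Tails of 150 nt or more were found on 4 Cd52 tags in DKO and on 0 in WT, and the longest listed was 231 nt, which is also the longest that Ly6e had.

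**Figure D1:**
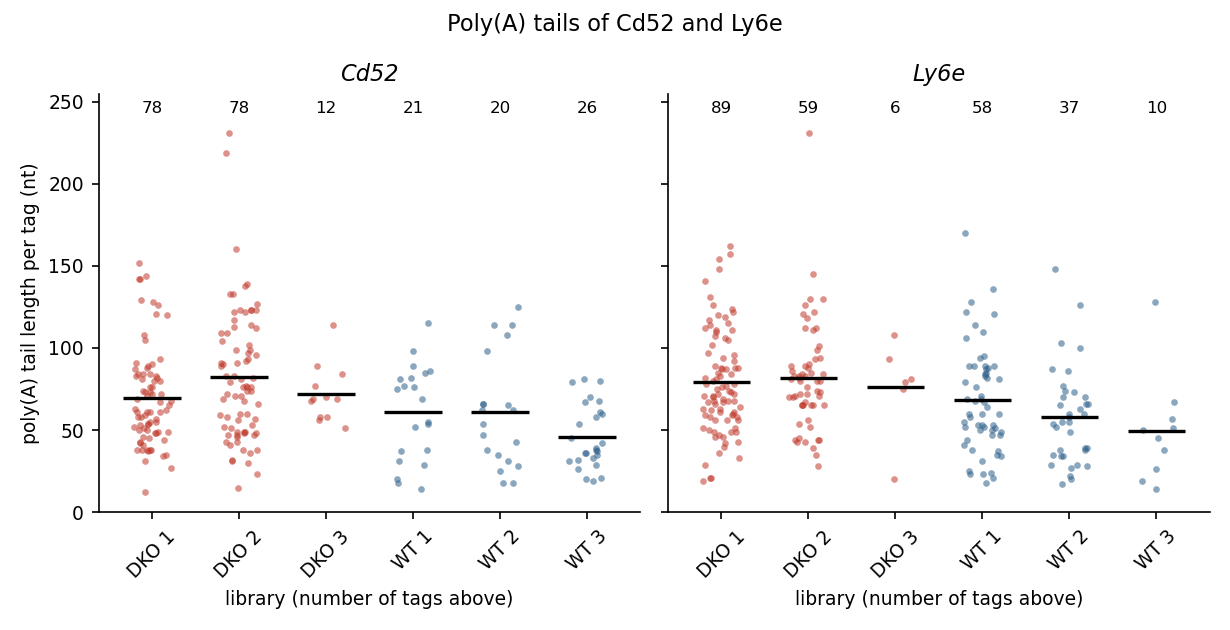
Each point is the poly(A) tail length in nt of 1 tailed tag of Cd52 (left) or Ly6e (right), by library, with the mean as a black bar and the number of tags above. The Cd52 means lie at 69.8 to 82.3 nt in DKO and 46.0 to 61.0 nt in WT, the Ly6e means at 76.0 to 81.8 nt in DKO and 49.5 to 68.1 nt in WT, and tails under 30 nt are sparse in DKO 1 and DKO 2.

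Ly6e tails averaged 79.0, 81.8 and 76.0 nt in DKO and 68.1, 58.0 and 49.5 nt in WT. The groups did not overlap, and the means were 78.9 nt ± 2.89 in DKO and 58.5 nt ± 9.30 in WT (SD, n = 3 each), 20.4 nt apart. DKO 3 had 6 tags and WT 3 had 10, so their means are the least certain. With numbers 1 and 2 only, the difference was 17.4 nt. Unlike those of Cd52, the Ly6e medians kept the groups apart, at 73, 80 and 80 nt in DKO and 62, 55 and 47.5 nt in WT, and 15.8% of the 76 IDs did so.

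Tails of 30 to 59 nt made up 23.6%, 18.6% and 0% of Ly6e tags in DKO and 34.5%, 35.1% and 50% in WT. Tails of 90 nt to under 150 nt made up 25.8%, 25.4% and 33.3% in DKO and 15.5%, 10.8% and 10% in WT. Neither class overlapped between the genotypes, and each separated that way for 6.58% of the 76 IDs, whereas the share of Ly6e tails under 30 nt overlapped. That share was 4.49% (4 of 89), 1.69% (1 of 59) and 16.7% (1 of 6) in DKO and 10.3% (6 of 58), 18.9% (7 of 37) and 30% (3 of 10) in WT. The overlap came from DKO 3, where the share was a single tag; with numbers 1 and 2 only, the shares averaged 3.09% in DKO and 14.6% in WT.

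**Figure D2:**
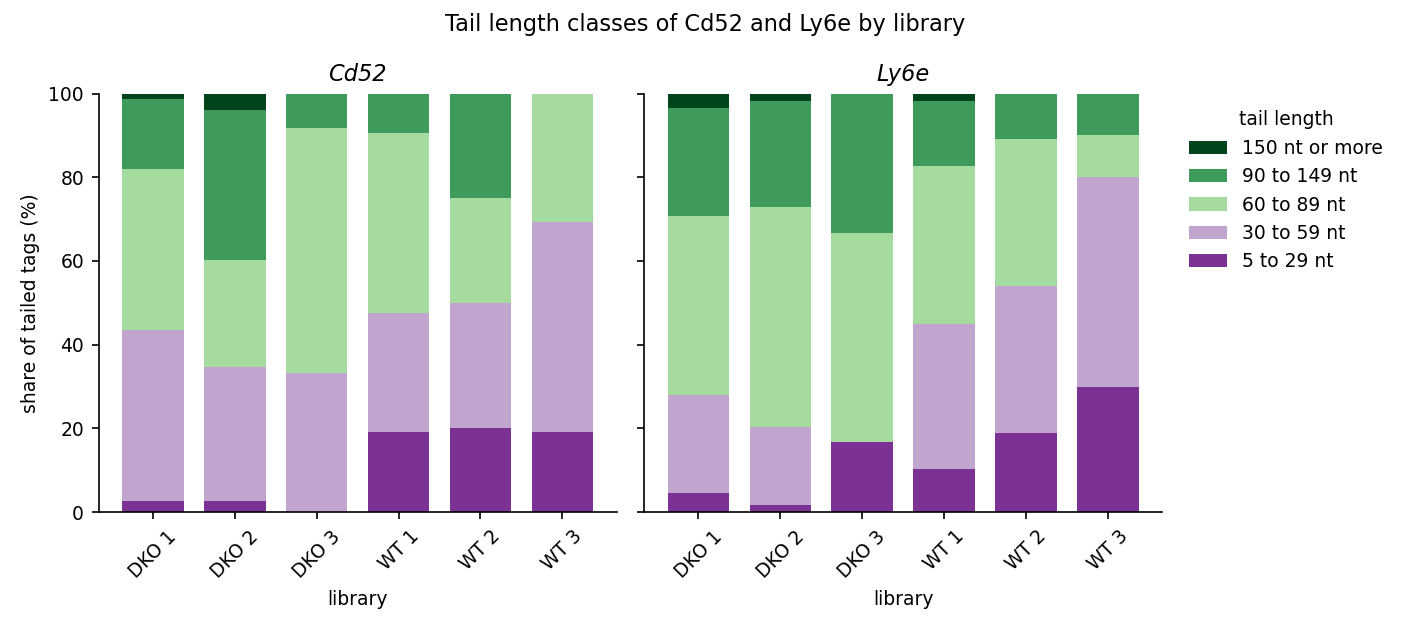
Stacked bars give the share of tailed tags (%) in 5 classes of tail length for Cd52 (left) and Ly6e (right) in each library, DKO then WT. The class of 5 to 29 nt holds 0% to 2.56% of Cd52 tags in DKO and 19.0% to 20% in WT, whereas for Ly6e it holds 1.69% to 16.7% in DKO and 10.3% to 30% in WT.

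Set against other transcripts, the separation was as follows. Among the 76 IDs with 5 or more tailed tags per library, 9.21% had a mean tail length higher in every DKO library than in every WT library, and Cd52 and Ly6e, the 2 of the 5 genes with that many tags, were both among them. The differences of 20.4 nt for Ly6e and 18.7 nt for Cd52 were the largest and second largest of the 76, whose median difference was 4.51 nt, with 66 of 76 above 0. The share under 30 nt was lower in every DKO library than in every WT library for 25% of the 76 IDs, Cd52 among them and Ly6e not. That contrast chose Cd52, and how values entered the choice of Ly6e is not given, so nothing is read from these counts.

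In the limma fit over the 44 IDs that had 10 or more tailed tags in each library, 0% were called at an adjusted p of 0.05 (0 of 44, and 2 at an unadjusted p of 0.05). Cd52 was the only one of the 5 genes with enough tags, and its log2 fold of the geometric mean tail length was 0.50 (SE 0.14), where the median of the 44 was 0.12. With a minimum of 5 tags, again 0 IDs of 76 were called, and the log2 folds were 0.51 (SE 0.17) for Ly6e and 0.50 (SE 0.14) for Cd52, beside a median of 0.14.

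Because library means differed, both genes were also set against the mean of their own library. Cd52 lay -2.41, 3.34 and 11.0 nt from its library's mean in DKO and -13.7, -9.45 and -2.28 nt from it in WT. WT 3 lay 0.132 nt above DKO 1 on this scale, so the genotypes overlapped. With numbers 1 and 2 only, the means were 0.463 nt in DKO and -11.6 nt in WT. Within each number, DKO was the higher by 11.3, 12.8 and 13.3 nt. Ly6e lay 6.76, 2.85 and 15.1 nt above its library's mean in DKO, and -6.62, -12.3 and 1.18 nt from it in WT, without overlap. Of the 76 IDs, 1.32% separated that way (1 ID, Ly6e), from which again nothing is read. Relative to the library, the difference between the genotypes was 12.5 nt for Cd52 and 14.1 nt for Ly6e, where it was 18.7 nt and 20.4 nt in absolute length. With medians set against the library median, the difference was 7 nt for Cd52 and 15.8 nt for Ly6e. With numbers 1 and 2 only, it was 0.75 nt for Cd52 and 13 nt for Ly6e. In the libraries numbered 1, DKO minus WT was -8.5 nt for Cd52 on this scale.

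**Figure D3:**
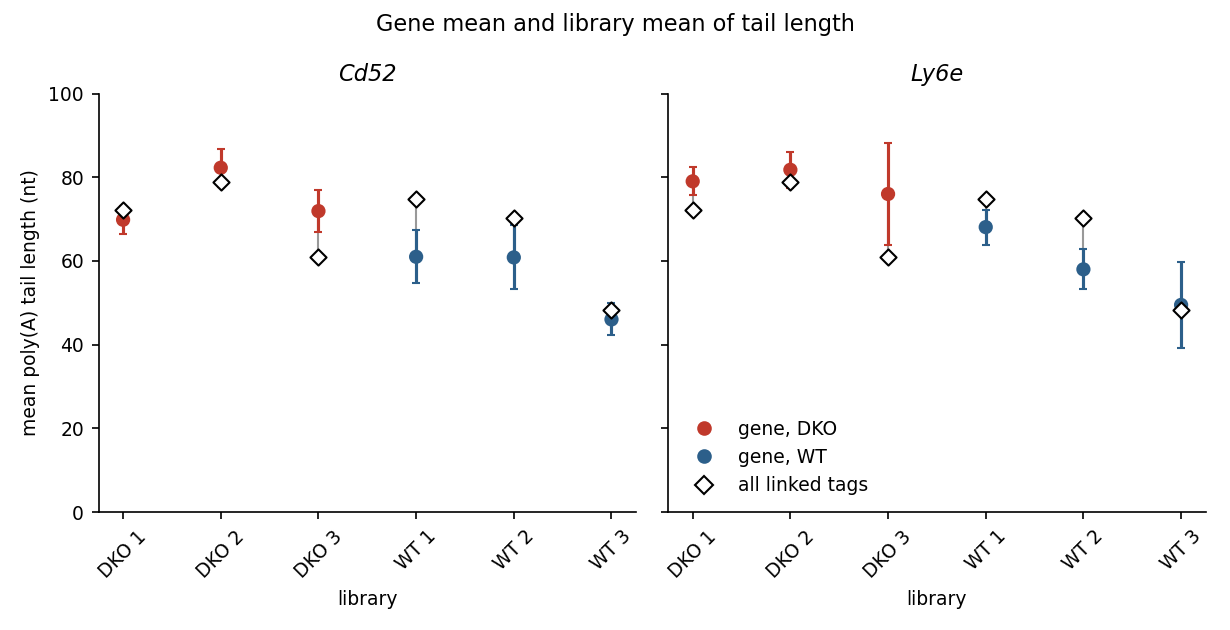
Filled circles give the mean tail length in nt of Cd52 (left) or Ly6e (right) with the standard error over tags, and open diamonds the mean over all linked tags of the same library. In WT 1 and WT 2 both genes lie below their library's mean (-13.7 to -6.62 nt from it), and in DKO 3 both lie above it, by 11.0 and 15.1 nt.

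Their ranks among other IDs show the same positions. From the longest geometric mean tail, Cd52 ranked 28, 21 and 10 of the 44 IDs in DKO and 36, 38 and 37 in WT. Ly6e ranked 20, 26 and 18 of the 76 IDs in DKO and 49, 62 and 63 in WT. Both transcripts were thus of middle rank or above in DKO 2 and DKO 3, and in the lower part of the order in WT.

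Thy1 tails averaged 73.4, 85.9 and 83.2 nt in DKO and 86, 67.6 and 61.0 nt in WT, where the 86 nt of WT 1 is a single tag. The groups overlapped through that tag, with means of 80.8 nt ± 6.56 in DKO and 71.5 nt ± 13.0 in WT (SD, n = 3 each). With numbers 1 and 2 only, the means were 79.6 nt in DKO and 76.8 nt in WT. Geometric means averaged 66.8 nt in DKO and 65.6 nt in WT, and 65.1 and 68.6 nt with numbers 1 and 2 only. Tails under 30 nt made up 10%, 11.8% and 16.7% of Thy1 tags in DKO and 0%, 20% and 0% in WT. Thy1 tails spread widely in DKO 2, from 9 to 147 nt over 17 tags, of which 10 were from 90 nt to under 150 nt. DKO 1 had 2 and DKO 3 had 1 Thy1 tags of that length, and the 10 WT tags included 0, although WT 2 held 1 tail of 154 nt.

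Ly6c1 tails measured 47, 58, 126, 134 and 150 nt in DKO 1, 76 and 89 nt in DKO 3, and 42 to 98 nt over 7 tags in DKO 2. The 8 WT tails measured 82 nt in WT 1. Those of WT 2 measured 20, 34, 39 and 69 nt, and WT 3 had 33, 33 and 76 nt. The library means were 103, 76.6 and 82.5 nt in DKO and 82, 40.5 and 47.3 nt in WT, and they overlapped through the single tag of WT 1. The group means were 87.4 nt ± 13.9 in DKO and 56.6 nt ± 22.3 in WT (SD, n = 3 each), with a wide spread in WT.

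Ly6a tails in DKO ran from 47 to 101 nt over 10 tags in DKO 1 and from 23 to 176 nt over 6 tags in DKO 2. DKO 3 had 0 Ly6a tags of 3943, which allows up to 7.61 per 10000 when the limit is set at 3 counts, with an exact 95% upper bound of 9.35. In WT they measured 38, 57, 73 and 95 nt in WT 1, 65 nt in WT 2 and 46 nt in WT 3. The means of 68.9 and 77.3 nt in DKO 1 and DKO 2 stood above the 65.8, 65 and 46 nt of WT, but 2 of the 3 WT values are single tags. Geometric means overlapped, at 66.7 and 63.0 nt in DKO and 62.3, 65 and 46 nt in WT. So did the medians, at 70.5 and 55 nt in DKO and 65, 65 and 46 nt in WT. Ly6a had too few tags to enter a fit of tail length.

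**Figure D4:**
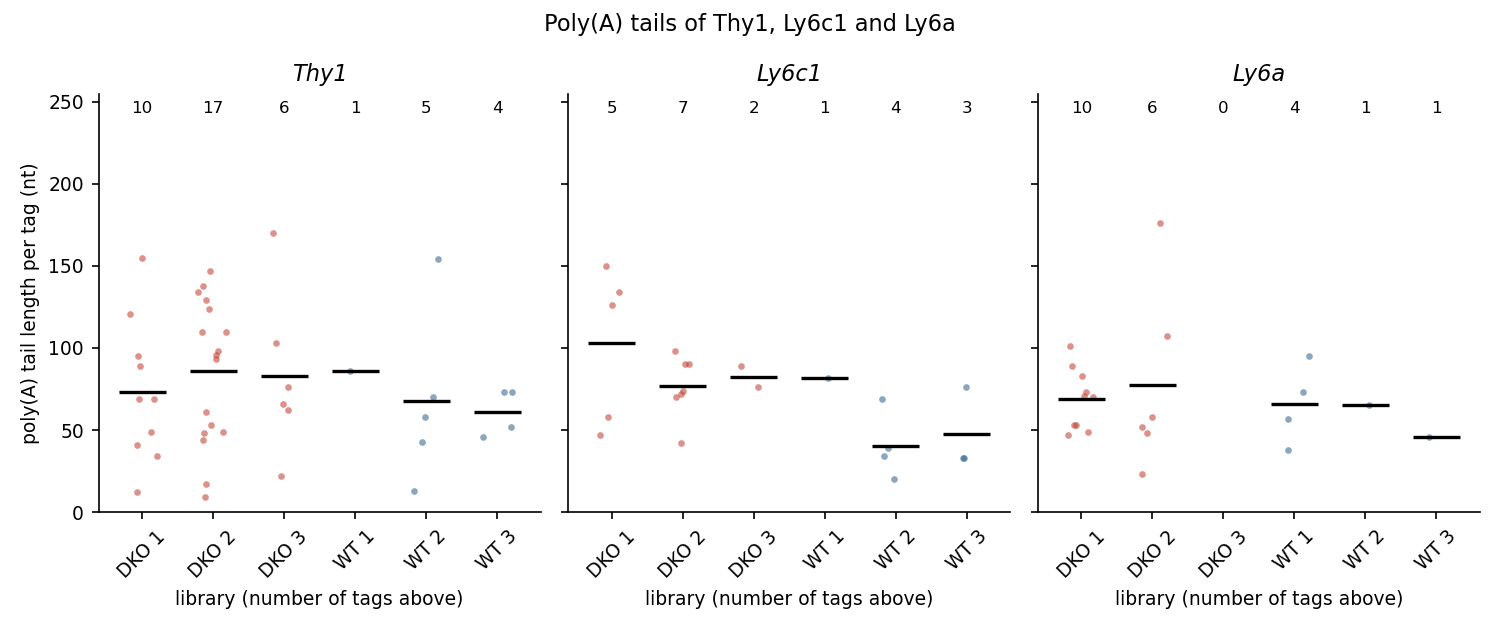
Each point is the poly(A) tail length in nt of 1 tag of Thy1, Ly6c1 or Ly6a, by library, with the mean as a black bar and the number of tags above. Libraries hold 0 to 17 tags per gene, and single tags make the mean of WT 1 for Thy1 (86 nt) and Ly6c1 (82 nt) and of WT 2 (65 nt) and WT 3 (46 nt) for Ly6a.

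The order of the 5 transcripts within a library is another quantity than the difference between genotypes, and it was tested over libraries of both genotypes. It rests on the same tail lengths and libraries as the choice of Cd52. Averaged over the libraries, mean tail length was 76.2 nt ± 10.5 for Thy1, 72.0 nt ± 23.6 for Ly6c1, 68.7 nt ± 12.8 for Ly6e and 65.3 nt ± 12.3 for Cd52 (SD, n = 6 each). For Ly6a it was 64.6 nt ± 11.5 (SD, n = 5). By arithmetic mean, Cd52 tails were shorter than Thy1 tails in 6 of 6 libraries, by 10.9 nt on average. The largest difference, -25 nt in WT 1, rests on a single Thy1 tag. By geometric mean, Cd52 was the longer in DKO 1 (63.8 against 60.1 nt), DKO 2 (73.2 against 70.1 nt) and WT 2 (51.8 against 51.1 nt). It was the shorter in DKO 3, WT 1 and WT 3. The arithmetic means were tested. A two-sided exact sign-flip permutation test gave p = 0.03125, which is the smallest it can give over 6 libraries, and an adjusted p of 0.3125 over the 10 pairs of genes.

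Neighbours in that order differed on average by less than the SD of their difference. Cd52 stood -3.41 nt ± 4.51 from Ly6e (SD over 6 libraries), with Cd52 the longer in 2 of 6, and the exact sign-flip p was 0.125 (adjusted p = 0.3125). By arithmetic mean, Thy1 was longer than Ly6a in 5 of 5 libraries, by 10.2 nt, and longer than Ly6e in 5 of 6, by 7.44 nt. By geometric mean, Thy1 was shorter than Ly6a in DKO 1 and WT 2, and shorter than Ly6e in DKO 1, DKO 2 and WT 2. None of the 10 pairs had an adjusted p below 0.3125.

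Tail length was also compared with the number of reads in a tag, a measure that had no part in the choice of genes, in a comparison added after the data were seen. Of the 581 tags, 286 had a single read and the highest number was 20. Cd52 tags with more than 1 read had a mean tail of 61.2, 72.1 and 56 nt in DKO, against 82.9, 94.1 and 73.4 nt for those with a single read, and the 56 nt of DKO 3 is 1 tag. In WT they had 52.3, 54.4 and 41.7 nt, against 68.9, 67.3 and 48.8 nt for single reads. The tags with more reads had the shorter mean in 6 of 6 libraries, with a mean difference of -16.3 nt ± 5.65 (SD, n = 6). The two-sided exact sign-flip p was 0.03125, the smallest it can give over 6 libraries, and 0.0469 after adjustment over the 3 such comparisons made. The comparison rests on the same tail lengths as the choice of Cd52. All linked tags, 1 of the 3 comparisons, include the Cd52 tags.

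The same held for the libraries as a whole, where all linked tags gave -19.6 nt ± 4.38 (SD, n = 6) and the same exact p and adjusted p. Ly6e gave -10.6 nt ± 14.2 (SD, n = 6), with the shorter mean in 4 of 6 libraries and an exact p of 0.15625 before and after adjustment. In DKO 3 and WT 1, Ly6e tags with more reads were the longer, by 6 and 3.89 nt. The share of single-read Cd52 tags was 39.7%, 46.2% and 91.7% in DKO and 52.4%, 50% and 61.5% in WT, and its part in the tail lengths of Cd52 was not tested. Counting every read in place of every tag, the difference in Cd52 mean tail length was 18.6 nt.

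Cd52 tags were more abundant in DKO in the libraries numbered 1 and 2 and less abundant in those numbered 3. Per 10000 tailed linked tags, Cd52 had 37.7, 32.5 and 30.4 tags in DKO and 12.4, 17.6 and 36.2 in WT. The level in WT 3 was near that of the DKO libraries, so the groups overlapped, at 33.5 ± 3.76 in DKO and 22.1 ± 12.5 in WT (SD, n = 3 each). With numbers 1 and 2 only, the means were 35.1 in DKO and 15.0 in WT. These are shares of the RNA of sorted populations, in which fewer cells with a transcript and less of it per cell cannot be told apart.

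Ly6e had a similar mean level in both genotypes, with 43.0, 24.6 and 15.2 tags per 10000 in DKO and 34.2, 32.5 and 13.9 in WT. In both genotypes the library numbered 3 had the lowest level of Ly6e. Thy1 had 4.84, 7.08 and 15.2 tags per 10000 in DKO and 0.590, 4.39 and 5.57 in WT, and the groups overlapped through DKO 1 and WT 3. Ly6c1 lay between 2.42 and 5.07 per 10000 in DKO and between 0.590 and 4.18 in WT. Ly6a lay between 0 and 4.84 in DKO and between 0.878 and 2.36 in WT. Together the 5 genes made up 92.9, 69.5 and 65.9 tags per 10000 in DKO and 50.1, 58.8 and 61.3 in WT, mostly from Cd52 and Ly6e. Each gene by itself overlapped between the genotypes. How often the sum over other genes keeps the genotypes apart was not tested, so nothing is read from this sum.

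edgeR's quasi-likelihood test called 0% of 170 IDs for tag count at an adjusted p of 0.05 (0 of 170, with 13 at an unadjusted p of 0.05). Its log2 folds were 0.61 (SE 0.47) for Cd52 and 0.02 (SE 0.47) for Ly6e, and the other three genes had too few tags to enter. With the replicate number as a block, 1.76% of the 170 IDs were called (3 IDs). With numbers 1 and 2 only, 30 of 241 IDs (12.4%) were called, and the log2 fold of Cd52 was 1.08 (SE 0.35).

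**Figure D5:**
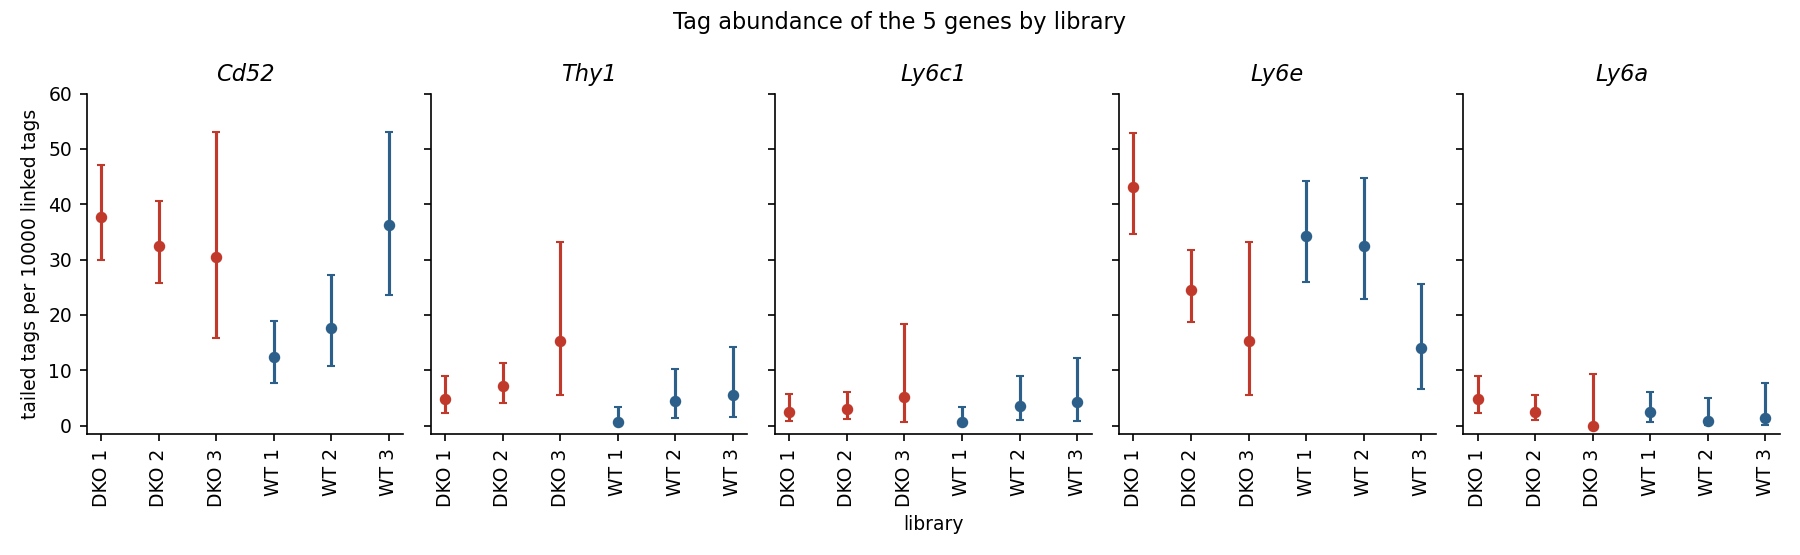
Points give tailed tags per 10000 tailed linked tags for each of the 5 genes by library, DKO in red and WT in blue, with exact 95% intervals that cover counting error only. Cd52 lies at 30.4 to 37.7 in DKO and at 12.4, 17.6 and 36.2 in WT, and Ly6e is lowest in the libraries numbered 3 of both genotypes.

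Ranked by number of tags, which mark 3′ ends and were not scaled by length, Cd52 stood at 29, 37 and 35 in DKO and at 88, 65 and 33 in WT, among the 1387 to 4045 IDs with tailed tags in a library. Ly6e stood at 25, 50 and 69 in DKO and at 33, 37 and 70 in WT. Both were thus among the 100 IDs with the most tags in every library.

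Bases added beyond the A tail were rare on the 5 transcripts. Of 581 tags, 14 carried an added base in the deposited calls, of which 13 held a U (2.24%, exact 95% interval 1.20% to 3.80%), 1 held a G and 0 a C. A U was found on 4 of 192, 4 of 167 and 0 of 26 tags in DKO, and on 3 of 85, 2 of 67 and 0 of 44 in WT. Over all linked tags the shares with a U were 2.39%, 2.30% and 2.74% in DKO and 2.51%, 2.42% and 3.61% in WT, all within the exact intervals of the 5 genes in the same libraries. By gene, Ly6e had 8 tags with a U of 259, Cd52 4 of 235 and Ly6c1 1 of 22, while Thy1 had 0 of 43 and Ly6a 0 of 22. A count of 0 allows a share of up to 6.98% for Thy1 and 13.6% for Ly6a when the limit is set at 3 counts, with exact 95% upper bounds of 8.22% and 15.4%.

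A few of these tails are printed to show what such an end looks like, with the added bases in capitals and U read as T. The number is the tail length listed after mapping, which can differ by a few nt from the letters read.
Cd52, DKO 1, 12 nt: aaaaaaaaaaaT
Cd52, DKO 2, 72 nt: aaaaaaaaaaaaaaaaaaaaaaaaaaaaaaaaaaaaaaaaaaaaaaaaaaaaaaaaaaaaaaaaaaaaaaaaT
Ly6e, DKO 1, 19 nt: aaaaaaaaaaaaaaaaaT
Ly6e, DKO 1, 56 nt: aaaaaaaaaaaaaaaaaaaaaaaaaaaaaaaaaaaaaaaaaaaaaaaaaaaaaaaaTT
Ly6e, WT 1, 52 nt: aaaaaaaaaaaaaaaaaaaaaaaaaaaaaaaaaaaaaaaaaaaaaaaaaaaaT
Ly6c1, WT 3, 33 nt: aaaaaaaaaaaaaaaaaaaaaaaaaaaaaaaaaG
Among the tails printed, added U stood on short tails of 12 and 19 nt and also on tails of 52 nt or more. Tails with a U that are not printed included 18 nt (Cd52, WT 2), 47 nt (Cd52, DKO 2) and 44 nt (Ly6e, WT 1). The tag with the most reads of the 5 genes, 20, was the Ly6e tail of 19 nt. Among tails of at least 30 nt the share with a U was 1.87%.

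A further 3 IDs had tails most like those of Cd52, by the root mean square difference of log2 geometric mean tail length over the 6 libraries. They were ENSMUSG00000055762 at 0.18, ENSMUSG00000066278 at 0.19 and ENSMUSG00000062006 at 0.20, where the median over the 43 other IDs with enough tags for the limma fit was 0.32. In ENSMUSG00000055762, the geometric mean tail was 61.2, 65.4 and 57.0 nt in DKO and 57.7, 58.4 and 47.1 nt in WT. For ENSMUSG00000066278 it was 60.2, 74.9 and 59.2 nt in DKO and 63.0, 58.3 and 35.4 nt in WT. For ENSMUSG00000062006 it was 66.7, 83.5 and 59.5 nt in DKO and 64.01, 54.0 and 49.6 nt in WT. Cd52 had 63.8, 73.2 and 70.2 nt in DKO and 52.7, 51.8 and 42.1 nt in WT. The files give no names for these IDs.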

How the data were processed

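mTAIL-seq was made from 3 DKO and 3 WT libraries of naive CD4 T cells. Per the submitters' processing notes, GSNAP and bedtools were used, with builds mm10 and GRCm38 of the mouse. The sources used here do not give the tail caller, the annotation release or what the flag column means. The authors deposited, per library, tables of mapped tags and of tags linked to gene IDs. Reads per tag are whole-number counts in the deposited tables, and tail lengths are deposited in nt before and after mapping. The length after mapping was used, and a tag with at least 5 nt counted as tailed. For the 29 gene and library values with tailed tags, the recomputed tag counts and geometric means matched the deposited gene tables, within 1e-06 nt for the means. The deposited median is the upper of the middle values where the number is even.

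The members and gene lists were chosen with earlier results of these data known. By the rule for naming genes, the 5 genes are always named, and beside them the 3 IDs most like Cd52 in tail length. The lists of other GPI-anchored proteins, GPI synthesis and cell type markers, and the check of Btg1 and Btg2, were not analysed here, because 0 of 49997 rows of the RefSeq table (GRCm38.p6) pair a symbol with an Ensembl ID. The 3′ end positions planned for these genes were not analysed here, as the tables used give no coordinates.

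The log2 geometric mean tail length was fitted with limma 3.58.1 (at least 10 tailed tags in every library), and tag counts with edgeR 4.0.16 (TMM, filterByExpr, quasi-likelihood), in R 4.3.3, over all IDs, with Benjamini-Hochberg adjustment at 0.05. DESeq2 1.42.0 was an alternative for counts. Single values were tested over libraries with exact sign-flip permutation tests (Python 3.11.15, pandas 2.3.3, SciPy 1.17.1). Both fits were also run on simulated data, with tail length noise set below the observed spread and no effect of the libraries numbered 3. These settings were easier than the data, so nothing is read from them about the counts of calls. Depth ranged from 3943 to 24024 tailed linked tags.

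Libraries of both genotypes carry the numbers 1, 2 and 3. Deviations from the group means correlated between same-numbered libraries at 0.16, 0.29 and 0.41 for tail length (44 IDs) and 0.14, 0.21 and 0.38 for tag count (170 IDs). Every same-numbered pair was above 0.1. The main fits used genotype only, and the number entered as a block in an alternative fit. However, DKO 2 correlated more with WT 1 for tail length (0.42) and count (0.29), and DKO 1 more with WT 2 for count (0.38). Libraries numbered 1 and 2 correlated positively across numbers, and negatively with those numbered 3. Deviations from a group mean cancel within each genotype, so positive values with some numbers force negative values with others. The pattern of signs is thus partly fixed in advance, and nothing is read from it. These values therefore do not show that libraries of the same number are matched.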

Additional observations from a re-analysis of the deposited data

How the results depend on the processing

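The difference in Cd52 mean tail length between DKO and WT kept its direction under every alternative run, at 13.8 to 21.2 nt with each library left out in turn, 15.1 nt with numbers 1 and 2 only, 14.0 nt for medians and 18.9 nt with tail length before mapping, an alternative chosen after seeing the data. With same-numbered libraries as pairs (replicate block) it stayed 18.7 nt. Ly6e likewise gave 15.9 to 25.2 nt. The count of IDs called by limma for tail length was 0 of 44, also with the replicate block and with each library left out, and 2 with the library group (numbers 1 and 2 against 3) as a block. For tag counts edgeR called 0 of 170 IDs, 0 to 8 with each library left out (8 without WT replicate 3), 30 with numbers 1 and 2 only, 3 with the replicate block and 3 with the library group as a block. DESeq2 called 0 (8 at an unadjusted p of 0.05). The cause of these shifts was not tested. Scaling by library totals in place of TMM moved the median log2 fold of tag counts to 0.24 where it was -0.05, and the log2 fold to 0.90 for Cd52 and 0.31 for Ly6e. The order of Cd52 and Ly6e (-4.66 to -2.26 nt with each library left out) and the share of tags with a U (1.87% for tails of at least 30 nt) stayed on the same side. The alternatives on 3′ end positions were not run. Depth limits the libraries numbered 3, with 26 tags of the 5 genes in DKO and 44 in WT.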

Other observations

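Deposited bases cover the whole tail with no base other than A for 227 of the 581 tags of the 5 genes, while 106 tags (18.2%) list no bases, so their length rests on the tail call alone. The tail length before and after mapping was equal for 426 tags and within 2 nt for 535, and the largest change was 19 nt. In DKO 2, 1 tag of Cd52 and 1 of Ly6e were linked to the gene with a listed tail of 0 nt and were left out as untailed, the Ly6e one with 7 reads.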
